A study of Homo sapiens with 12 samples.

Results

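The genes described here encode 10 proteins that bind microtubules or tubulin: MAPT (tau), MAP2, MAP4, MAP1A, MAP1B, DCX, DCLK1, STMN1, STMN2 and STMN4. They were taken by gene symbol from a table of 59653 symbols, and all 10 were among the 24671 genes that passed the filter on low counts. The table holds RNA-seq counts of 12 libraries of human neurons grown from induced pluripotent cells of IMR-90, a fibroblast line. In 6 libraries the neurons had received a control siRNA without a stated target (negative control, siNC). In the other 6 they had received an siRNA to ZCCHC17 (siZCC), which encodes a zinc-knuckle RNA-binding protein. All 12 share 1 cell line and no time after siRNA is given. The titles of the samples also hold the letters NPC, which the labels leave undefined. The labels do not say that replicates are separate cultures, so p-values measure the spread between these samples, which may be technical.

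Microtubules are polymers of tubulin that grow and shrink at their ends, and neurons depend on them for shape and for transport along axons and dendrites. Tau, MAP2 and MAP4 are related proteins that bind along the lattice through repeated motifs and stabilise it. In mature neurons tau is enriched in axons and MAP2 in dendrites, whereas MAP4 is widely expressed. MAP1A and MAP1B are large lattice-binding proteins cut into heavy and light chains, with MAP1B early and MAP1A later in neuronal development. Doublecortin (DCX) and its relative DCLK1, which also carries a kinase domain, bind between protofilaments and serve in migrating and young neurons. Stathmins work the other way: they hold soluble tubulin and favour disassembly, and STMN2 is known for its role in axon growth and repair. Tau is also the protein of the neurofibrillary tangles of Alzheimer's disease, the disorder named in the title of the study.

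Depth was 90755953 to 120023356 counts per library in siNC and 76115083 to 105389055 in siZCC, and no 2 libraries of a group agreed within sampling noise. ZCCHC17, the siRNA target, fell from 56.9 ± 2.49 to 9.999 ± 0.507 counts-per-million (CPM; mean ± SD, n = 6 each), without overlap of the groups. Its log2 fold change was -2.51 (SE 0.0402, edgeR adjusted p = 3.52e-17). The libraries also split in counts of the cytokine gene IL1B: 619 to 1512 in siNC replicates 2, 3 and 6 and 449 to 1196 in siZCC replicates 1, 4 and 5, against 2 to 12 in the others. Neuronal markers were present beside progenitor and glial ones. GAP43 was at 452 ± 27.2 CPM and SNAP25 at 91.4 ± 6.05 CPM in siNC, whereas TUBB3 was at 14.2 ± 0.629 CPM. The 20 neuronal markers listed ran from RBFOX3 at 1.27 ± 0.148 CPM to NCAM1 at 796 ± 59.2 CPM. Genes that overlap these markers were not looked for, so the counts of TUBB3 may understate its level. The progenitor gene VIM was at 3550 ± 109 CPM, NES at 1118 ± 58.8 CPM and the astrocyte gene GFAP at 616 ± 82.0 CPM (SD, n = 6 each). The label "neuron" thus covers a culture that also held RNA typical of progenitors and astrocytes.

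After ZCCHC17 siRNA, 6 of the 10 genes passed an adjusted p of 0.05 in edgeR's quasi-likelihood test, 4 lower and 2 higher. DCX, STMN1, STMN2 and MAP1B fell by 10.5% to 14.7%, and STMN4 and DCLK1 rose by 12.6% and 7.24%. MAPT, MAP2, MAP1A and MAP4 did not pass. Of all 24671 genes tested, 22.2% passed (11.4% higher and 10.8% lower). The members are abundant, ranking from 16 (MAP1B) to 733 (STMN4) by mean CPM not divided by length, and of the 733 genes of at least the mean CPM of STMN4, 42.3% passed, 29.5% higher and 12.8% lower. The median log2 fold change of the 10 genes was -0.06, against -0.0016 over all genes tested. In bulk samples, fewer cells of a type and less RNA per cell cannot be told apart. The count of members called fell to 3 without siZCC replicate 3 and to 3 without siZCC replicate 6. It was 1 within the high-IL1B libraries (STMN4) and 1 within the low-IL1B libraries (DCX), each with 3 libraries a group, and 6 with the split as a block.

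**Figure D1:**
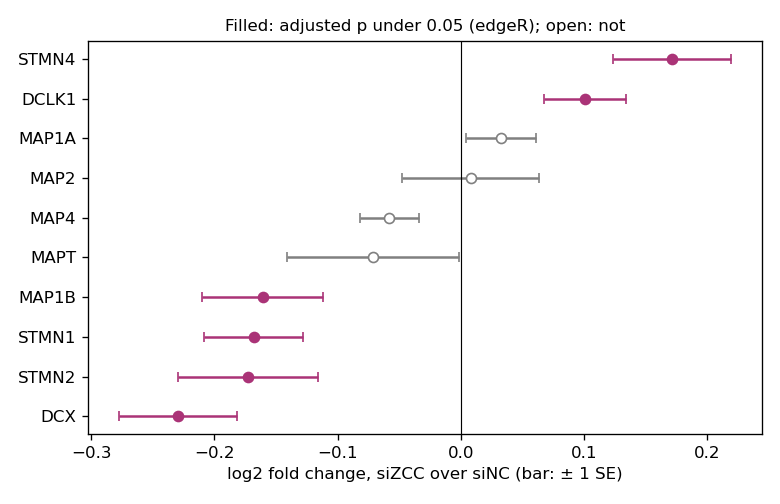
The log2 fold change of each gene (siZCC over siNC, x axis) is drawn with a bar of 1 SE, filled where the adjusted p was under 0.05. DCX lies farthest to the left at -0.23 and STMN4 farthest to the right at 0.17, and MAP2 sits near 0.

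DCX showed the largest change among the members. Its level in siNC had a lowest value of 600.1, a median of 648 and a highest value of 708.8 CPM, and in siZCC 502.4, 559 and 595.4 CPM. Every siZCC library was below every siNC library, with siZCC replicates 3 and 6 the lowest. The log2 fold change was -0.23 (SE 0.0480, edgeR adjusted p = 0.00252), and the exact two-sided permutation p over libraries was 0.00216, the smallest that 6 against 6 allows. DCX was the only member whose groups did not overlap, 1 of 10, against 9.74% of all genes tested (4.5% lower and 5.25% higher in siZCC). Leaving out any 1 library kept the call, with changes from -0.25 to -0.20. Within the high-IL1B libraries the change was -0.18 (adjusted p = 0.0519) and within the low-IL1B libraries -0.28 (adjusted p = 0.0352).

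DCLK1, the kinase-bearing relative of DCX, was higher in siZCC. Its lowest, median and highest values were 338.1, 358.5 and 381.4 CPM in siNC and 359.6, 389.6 and 398.1 CPM in siZCC. The groups overlapped, and 4 siZCC libraries lay above all siNC libraries. This was a log2 fold change of 0.10 (SE 0.0334, edgeR adjusted p = 0.0383; exact permutation p = 0.0173). The call was lost without any 1 of siNC replicates 1 to 4 or siZCC replicates 1, 2, 3, 4 and 6, with changes of 0.09 to 0.11 and adjusted p up to 0.0949. It was also lost with upper quartile scaling (adjusted p = 0.0508) and with no filter on low counts (adjusted p = 0.0896). DCLK2, the third gene of this family with a measurable level, rose from 409 ± 10.99 to 479 ± 8.03 CPM (SD, n = 6 each), a log2 fold change of 0.23 (SE 0.0252, edgeR adjusted p = 1.13e-05). DCLK3 had at most 21 counts in a library and was not tested.

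DCX (chrX:111293779-111412429, minus strand) and DCLK1 (chr13:35768652-36131306, minus strand) moved in opposite directions although both encode doublecortin repeats. The longest run of identical coding bases is 19 between DCX and DCLK1, 20 between DCX and DCLK2 and 23 between DCLK1 and DCLK2. Sequences and positions are from GENCODE release 29 on GRCh38, and the length of the reads is not given in the sources used here.

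The stathmins split in direction. STMN1, the family's widely expressed member, had a lowest value of 404.9, a median of 435 and a highest value of 478.1 CPM in siNC, and 359.9, 388 and 413.4 CPM in siZCC. Of the siZCC libraries, 5 lay below all siNC libraries. The log2 fold change was -0.17 (SE 0.0400, edgeR adjusted p = 0.00619; exact permutation p = 0.00433), and the call held without any 1 library (changes from -0.19 to -0.14). STMN1 is also known from dividing cells, and proliferation markers fell beside it. Among them 11 of 12 passed, all lower, against 10.8% of all genes tested that were called lower. Their summed level was 833 to 910 CPM in siNC and 657 to 765 CPM in siZCC. Their part in the result was not tested.

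STMN2, the neuronal stathmin of growing axons, was lower too, with more spread. Its lowest, median and highest values were 444.5, 483 and 529.4 CPM in siNC and 371.5, 447 and 463.9 CPM in siZCC. Only 3 siZCC libraries were below all siNC libraries, and replicates 3 and 6 were the lowest. The log2 fold change was -0.17 (SE 0.0571, edgeR adjusted p = 0.0381; exact permutation p = 0.0498). The call was lost without any 1 of siNC replicates 2, 3 and 5 and siZCC replicates 3 and 6, with changes of -0.16 to -0.14 and adjusted p up to 0.0875. It was also lost with GC content and length as an offset, at -0.14 (adjusted p = 0.109).

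STMN4, a stathmin expressed mainly in the nervous system, rose. Its lowest, median and highest values were 193.8, 207 and 232.9 CPM in siNC and 217.6, 237 and 252.1 CPM in siZCC, with 3 siZCC libraries above all siNC libraries. Its log2 fold change was 0.17 (SE 0.0480, edgeR adjusted p = 0.0163; exact permutation p = 0.0195), and the call held without any 1 library (0.15 to 0.20). Within the high-IL1B libraries the change was 0.22 (adjusted p = 0.0347) and within the low-IL1B libraries 0.11 (adjusted p = 0.111). STMN3, the remaining neuronal stathmin, was at 320 ± 18.3 and 332 ± 22.0 CPM (log2 fold change 0.05, edgeR adjusted p = 0.466). STMN1 (chr1:25884181-25906991), STMN2 (chr8:79610814-79666175) and STMN4 (chr8:27235323-27258420) share coding runs of 13 to 20 bases, and the processed pseudogene STMN1P1 held 0.0476% as many counts as STMN1.

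**Figure D2:**
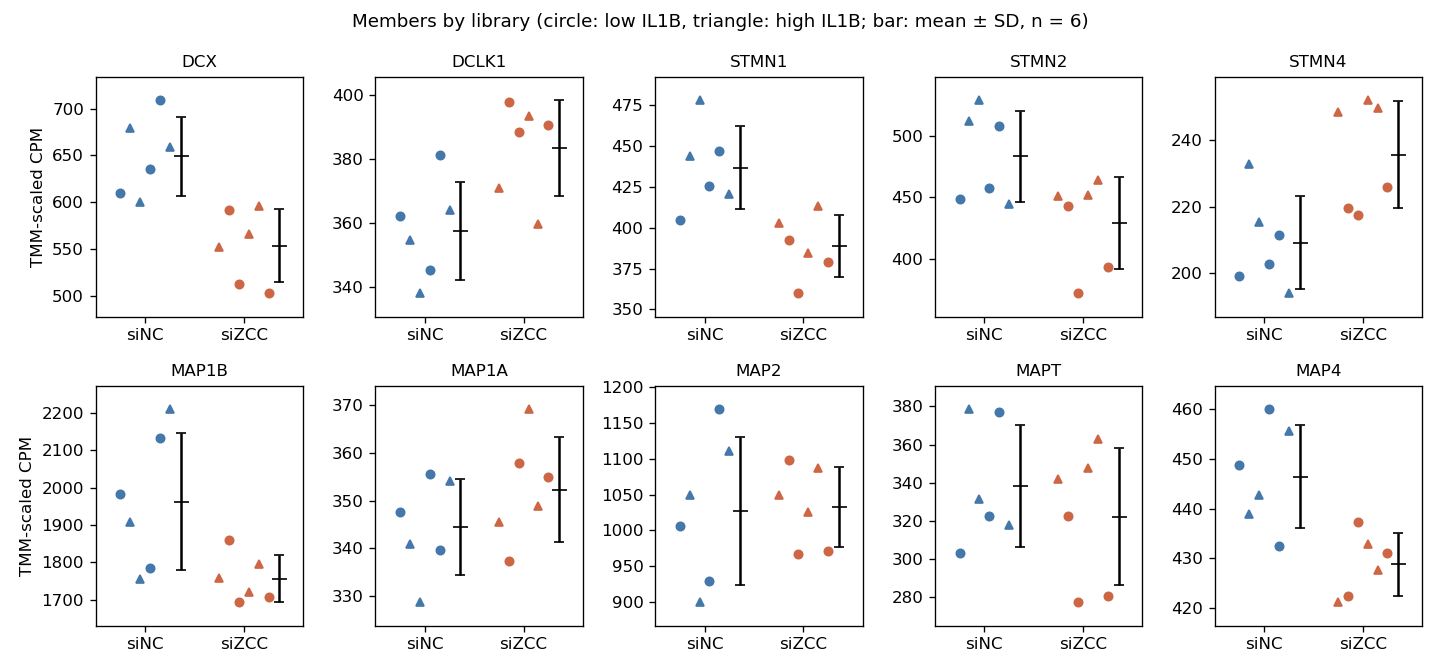
Each panel plots 1 gene's TMM-scaled CPM (y axis) by library in siNC and siZCC, with triangles for high and circles for low IL1B and a bar for the mean ± SD (n = 6). DCX is the only panel in which the 2 groups do not overlap, and the siZCC range of MAP2 lies within that of siNC.

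MAP1B, the member with the most counts (CPM not divided by length), fell. Its lowest, median and highest values were 1756, 1945 and 2210 CPM in siNC and 1693, 1740 and 1858 CPM in siZCC. Of the siZCC libraries, 3 lay below all siNC libraries. The coefficient of variation was 9.35% in siNC and 3.58% in siZCC. This gave a log2 fold change of -0.16 (SE 0.0493, edgeR adjusted p = 0.0266; exact permutation p = 0.0260). The call was lost without any 1 of siNC replicates 1, 5 and 6 and siZCC replicates 3, 4 and 6, with changes of -0.16 to -0.12 and adjusted p up to 0.0652.

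MAP1A, the MAP1 protein of mature neurons, varied little and did not pass. It ran from 328.8 to 355.4 CPM (median 344) in siNC and from 337.4 to 369 CPM (median 352) in siZCC, a log2 fold change of 0.03 (SE 0.0283, edgeR adjusted p = 0.458). MAP1S, a shorter and widely expressed relative, was at 85.3 ± 3.90 and 85.4 ± 5.66 CPM (SD, n = 6 each; edgeR adjusted p = 0.986). The pair MAP1A and MAP1B is shown over 90 coding bases of 1 exon each near the 3′ end of the coding sequence, with their longest identical run in capitals. MAP1A (gene at chr15:43510958-43531620, plus strand) gives coding bases 8131 to 8220 of 8409, at chr15:43529745-43529834. MAP1B (gene at chr5:72107234-72209570, plus strand) gives coding bases 7126 to 7215 of 7404, at chr5:72203676-72203765.
MAP1A: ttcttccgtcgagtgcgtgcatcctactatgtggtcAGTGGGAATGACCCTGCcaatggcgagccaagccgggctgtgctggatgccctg
MAP1B: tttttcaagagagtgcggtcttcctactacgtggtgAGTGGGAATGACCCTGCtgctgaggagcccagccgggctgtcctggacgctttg
Both windows end the same distance before the stop of their gene, 70 of 90 bases (77.8%) are identical, and the run in capitals has 17 bases.

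None of the tau family passed. MAP2 (chr2:209424058-209734118, plus strand) ran from 899.6 to 1169 CPM (median 1027) in siNC and from 967 to 1098 CPM (median 1038) in siZCC. Its log2 fold change was 0.0081 (SE 0.0555, edgeR adjusted p = 0.939), and the siZCC range lay within that of siNC. MAPT (chr17:45894382-46028334, plus strand) ran from 303 to 378.5 CPM (median 327) in siNC and from 277.1 to 362.7 CPM (median 332) in siZCC. Its means were 338 ± 32.0 and 322 ± 35.9 CPM (SD, n = 6 each), the log2 fold change was -0.07 (SE 0.0694, edgeR adjusted p = 0.511), and the median went the other way. Within the high-IL1B libraries its change was 0.03 (adjusted p = 0.780) and within the low-IL1B libraries -0.19 (adjusted p = 0.183). The edgeR test of the difference between these 2 changes gave an adjusted p of 0.935 for MAPT (unadjusted 0.0666). Of 24671 genes, 0 passed it (1177 at an unadjusted p under 0.05). With 3 libraries a group on each side, this test cannot show that the 2 changes are alike.

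MAP4 (chr3:47850690-48089272, minus strand), the family's member outside neurons as well as in them, was the least variable of the 10. It ran from 432.5 to 459.9 CPM (median 446) in siNC and from 421.2 to 437.4 CPM (median 429) in siZCC, with 4 siZCC libraries below all siNC libraries. Its log2 fold change was -0.06 (SE 0.0241, edgeR adjusted p = 0.0963). The exact permutation p, unadjusted, was 0.00649, and DESeq2's Wald test gave an adjusted p of 0.0436. Within the MAPT locus, the antisense gene MAPT-AS1 rose by 0.31 on the log2 scale (SE 0.1004, edgeR adjusted p = 0.0337), at 0.432% of the counts of MAPT. MAPT-IT1 held 0.490% and STH 0.112% as many counts as MAPT. Whether reads were counted by strand is not stated, so reads of MAPT and MAPT-AS1 may be mixed.

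Ratios of members within a library do not depend on the library's scaling. Their pairs were chosen after the values were seen and are given without a test. How often ratios of other gene pairs separate the groups was not computed. The ratio of DCX to DCLK1 was 1.81 ± 0.0796 (range 1.68 to 1.91) in siNC and 1.45 ± 0.134 (1.29 to 1.66) in siZCC, without overlap. STMN4 to STMN2 was 0.433 ± 0.0182 (0.407 to 0.454) in siNC and 0.551 ± 0.0315 (0.497 to 0.586) in siZCC, again without overlap, and STMN4 to STMN1 was 0.479 ± 0.0262 and 0.606 ± 0.0312, likewise. MAP2 to MAP1B was 0.523 ± 0.0206 (0.502 to 0.550) and 0.588 ± 0.0146 (0.569 to 0.605), also apart. The groups overlapped in the remaining ratios. MAP1B to MAP1A was 5.70 ± 0.497 (5.02 to 6.28) in siNC and 4.99 ± 0.320 (4.66 to 5.51) in siZCC. STMN1 to STMN2 was 0.904 ± 0.0304 and 0.909 ± 0.0471, and MAPT to MAP2 0.331 ± 0.0332 and 0.311 ± 0.0242 (SD, n = 6 each throughout).

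**Figure D3:**
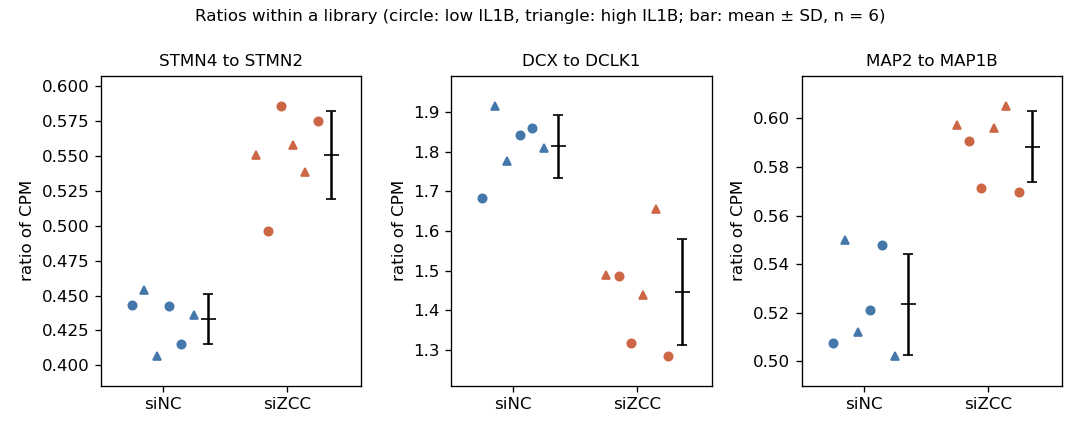
Each panel plots the ratio of 2 members' CPM within a library (y axis) in siNC and siZCC, with triangles for high and circles for low IL1B and a bar for the mean ± SD (n = 6). The ratios of STMN4 to STMN2, DCX to DCLK1 and MAP2 to MAP1B separate the groups. These pairs were chosen after the values were seen, and ratios with overlap are not drawn.

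Levels can be compared between genes only per length. On CPM per kilobase of all annotated exons, in siNC, STMN2 was highest at 205 ± 15.8, followed by MAP1B at 155 ± 14.5 and MAP2 at 88.9 ± 8.96. STMN1 (69.8 ± 4.07), DCX (63.6 ± 4.10) and STMN4 (63.5 ± 4.26) followed and overlapped their neighbours. MAP1A (32.4 ± 0.943), MAP4 (29.9 ± 0.691), DCLK1 (24.9 ± 1.06) and MAPT (22.7 ± 2.14; SD, n = 6 each) were lowest, and DCLK1 and MAPT overlapped. The order depends on which transcript is taken as the length. Per kilobase of 1 principal transcript, STMN1 came first at 255 ± 14.9, with a range that overlapped that of STMN2 (218 ± 16.8), and MAP1A was last at 33.6 ± 0.977 CPM per kilobase.

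The members were next compared by how they varied within a group, as deviations of log2 CPM from the group mean over the 12 libraries. Of 45 pairs, 8 had an adjusted p under 0.05, all with positive r (9 by Spearman's rho), and the median r over the 45 was 0.08. MAP2 and MAP1B varied most closely (Pearson's r = 0.916, Spearman's rho = 0.930, permutation test adjusted p = 0.0171 and 0.0137, unadjusted 0.00113 and 0.00061). STMN1 and STMN2 followed (r = 0.893, rho = 0.895, permutation test adjusted p = 0.0018 and 0.0137, unadjusted 4e-05 and 0.00046). Without the 2 libraries farthest from the median of the first gene, these r were 0.869 and 0.854. Among libraries with high IL1B they were 0.901 and 0.800, and among those with low IL1B 0.963 and 0.900. Deviations within a side were still taken from the whole group's mean. With the mean of each side of the split removed within each group, these 2 r were 0.931 and 0.868. The median r over the 45 pairs was then 0.02.

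MAPT varied with STMN2 (r = 0.873, rho = 0.825), DCX (r = 0.828, rho = 0.811) and STMN4 (r = 0.816, rho = 0.811), with permutation test adjusted p from 0.0217 to 0.0260 for r and of 0.0244 for rho. Their r ran from 0.758 to 0.815 without the 2 farthest libraries. In the high- or low-IL1B libraries, as deviations from the whole group's mean, r ran from 0.634 to 0.958. With the mean of each side of the split removed within each group, r was 0.800 for STMN2, 0.847 for DCX and 0.650 for STMN4. MAP2 with DCX gave r = 0.832 (rho = 0.839), STMN2 with STMN4 r = 0.794 (rho = 0.839), and MAP1A with MAP4 r = 0.744 (rho = 0.839), with permutation test adjusted p of 0.0171, 0.0260 and 0.0433 for r and 0.01575, 0.0203 and 0.0203 for rho. STMN2 and STMN4, which shifted in opposite directions between the groups, were thus high and low in the same libraries within a group. Without the 2 farthest libraries these r were 0.755, 0.748 and 0.851. In the high- and low-IL1B libraries they were 0.828 and 0.851, 0.829 and 0.563, and 0.747 and 0.815. After removal of the side means they were 0.835, 0.629 and 0.797. Over these 6 pairs the unadjusted permutation p ran from 0.00114 to 0.0077 for r and from 0.00105 to 0.00434 for rho. Among pairs of the 12625 genes of at least 5 CPM, 2.84% had an r of at least 0.744, and the median was -0.002. That cut is the smallest r among the called member pairs. Genes less abundant than any member are in this set, so its share is not matched to the members. The most negative pair was MAP4 with STMN2 (r = -0.707, permutation test adjusted p = 0.077).

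**Figure D4:**
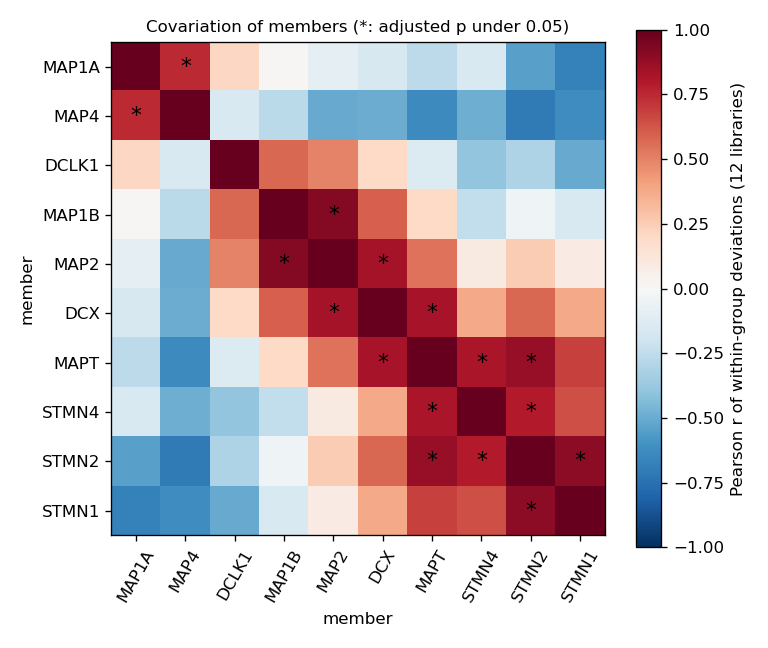
The map gives Pearson's r of within-group deviations of log2 CPM over 12 libraries for each pair of the 10 genes (colour), with a star where the adjusted p was under 0.05. The 8 starred pairs all have positive r, from 0.744 to 0.916.

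The genes whose within-group deviations were most like each member's are given as a description, over the same 12 libraries. MAPT was matched by CDK5R1, the activator of the tau kinase CDK5 (r = 0.989), and by CELF4 (r = 0.982), an RNA-binding protein of neurons. MAP2 was matched by PCLO (r = 0.984) and ANK3 (r = 0.982), MAP1B by PCM1 (r = 0.980) and ZFHX4 (r = 0.979), and DCX by NEDD4L (r = 0.979) and the end-binding gene MAPRE2 (r = 0.972). For the stathmins they were SCG3 (r = 0.964) and PITPNA (r = 0.930) for STMN1, TERF2IP (r = 0.967) and NSG2 (r = 0.957) for STMN2, and SNN (r = 0.974) and GIT1 (r = 0.973) for STMN4. SALL1 (r = 0.936) and GTF3C1 (r = 0.917) were nearest to MAP1A, PRKD1 (r = 0.956) and USP43 (r = 0.951) to MAP4, and IQGAP2 (r = 0.939) and CASC2 (r = 0.938) to DCLK1. Of these 20 genes, SCG3 fell by 0.14 (SE 0.0320, edgeR adjusted p = 0.00396) and SNN rose by 0.20 (SE 0.0318, edgeR adjusted p = 2.48e-04) on the log2 scale, in the directions of STMN1 and STMN4. The other 18 did not pass.

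Other microtubule genes were listed by role. Of 149 tested, 51 passed (34.2%), 18 higher and 33 lower, against 22.2% of all genes tested. The mitotic spindle list held 19 of these calls, all lower. The other 5 lists held 32 of 126 (25.4%), 18 higher and 14 lower. Among the 733 genes at least as abundant as STMN4, 42.3% passed, and no share matched to the abundance of these lists was computed. Among 21 further structural proteins, 2 rose and 3 fell (23.8% called). JPT1, a relative of the fly microtubule protein Jupiter, fell by 0.38 on the log2 scale (SE 0.0406, edgeR adjusted p = 8.18e-06). DPYSL3, a collapsin response mediator that binds tubulin, fell by 0.18 (SE 0.0271, edgeR adjusted p = 2.31e-04). Besides DCLK2, the autophagy gene MAP1LC3B2 rose by 0.41 (SE 0.0716, edgeR adjusted p = 5.84e-04), at 3.41 ± 0.188 CPM in siNC. It is near-identical to MAP1LC3B, so its counts are uncertain.

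Among 22 end-binding and minus-end proteins, 5 rose and 1 fell (27.3% called, against 22.2% of all genes tested). NAV2 rose by 0.38 (edgeR adjusted p = 2.11e-04) and CLIP2 by 0.23 (adjusted p = 5.12e-04), and MAPRE1, which encodes EB1, fell by 0.15 on the log2 scale (adjusted p = 0.00107). Of 24 kinases, phosphatases and chaperones that act on tau and its relatives, 2 rose and 2 fell (16.7%, against 22.2% of all genes tested). The count of 4 became 3 with the replicate block and 6 with the GC content and length correction. MARK4 rose by 0.15 (edgeR adjusted p = 0.00442) and the phosphatase subunit PPP2CB by 0.08 (adjusted p = 0.0488), whereas MAPK8 fell by 0.16 (adjusted p = 0.0105) and PPP2CA by 0.10 (adjusted p = 0.0159).

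Among 29 severing and tubulin-modifying enzymes, 5 rose and 3 fell (27.6% called, against 22.2% of all genes tested). The tubulin deacetylase SIRT2 rose by 0.30 (edgeR adjusted p = 5.62e-05) and the polyglutamylase TTLL4 by 0.16 (adjusted p = 0.00116). TTL, which restores the terminal tyrosine of alpha-tubulin, fell by 0.15 (edgeR adjusted p = 4.25e-04) and the severing enzyme SPAST by 0.12 (adjusted p = 0.0275). The count of 8 in this list dropped to 4 without siNC replicate 6 and to 5 without any 1 of siNC replicates 1 and 2 and siZCC replicates 1, 3 and 4. Of 30 transport motor genes, 4 rose and 5 fell (30% called). KIF13B rose by 0.28 (edgeR adjusted p = 2.15e-05) and KIF1A, the motor of synaptic vesicle precursors, by 0.22 (adjusted p = 2.75e-04), whereas DYNLL2 fell by 0.12 (adjusted p = 0.0131) and KIF3C by 0.15 (adjusted p = 0.0206).

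The microtubule-binding proteins of the mitotic spindle fell in 19 of 23 cases (82.6%) and 0 rose, against 10.8% of all genes tested called lower. Their median log2 fold change was -0.36. HMMR fell from 10.5 ± 0.535 to 6.71 ± 0.324 CPM and AURKA, the spindle pole kinase, from 16.0 ± 0.953 to 10.1 ± 0.613 CPM (SD, n = 6 each), both with an edgeR adjusted p of 3.39e-07. By edgeR at an unadjusted p under 0.05, and by DESeq2's Wald test, 0 rose as well. No member fell by as much as the median of this list.

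**Figure D5:**
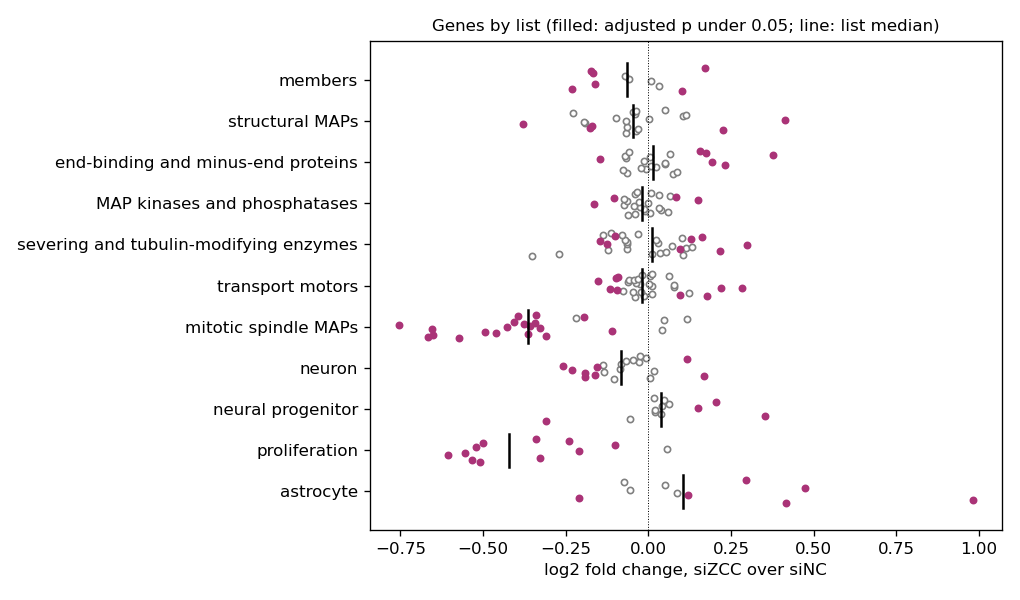
Points are single genes by list (y axis) at their log2 fold change, siZCC over siNC (x axis), filled where the adjusted p was under 0.05, with a bar for each list's median. The mitotic spindle list lies mostly below 0, with a median of -0.36, whereas the medians of the other pathway lists lie between -0.05 and 0.02.

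Markers of the cell types the culture could hold were read alongside. For comparison, 22.2% of all genes tested passed, and 42.3% of the 733 genes at least as abundant as STMN4. Of 20 neuronal markers, 2 rose and 6 fell (40% called, median log2 fold change -0.08). Their summed level was 3896 to 4323 CPM in siNC and 3702 to 4141 CPM in siZCC. NSG1 fell by 0.26 (edgeR adjusted p = 0.0020) and NEFM by 0.16 (adjusted p = 0.0028), whereas ENO2 rose by 0.17 (adjusted p = 0.00564) and SYT1 by 0.12 (adjusted p = 0.0477). GAP43, a growth cone protein, fell by 0.16 on the log2 scale (edgeR adjusted p = 0.0235). Of 12 progenitor markers, 3 rose and 1 fell (33.3% called), with summed levels of 6586 to 7006 and 6634 to 7191 CPM. SOX2 rose by 0.20 (edgeR adjusted p = 8.08e-05) and HES5 by 0.35 (adjusted p = 0.00401), and FABP7 fell by 0.31 (adjusted p = 1.87e-04).

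Of 10 astrocyte markers, 5 rose and 1 fell (60% called, against 22.2% of all genes tested), with sums of 1952 to 2177 and 2076 to 2388 CPM. ALDOC rose by 0.98 (edgeR adjusted p = 1.39e-06) and NDRG2 by 0.47 (adjusted p = 2.48e-04), and AQP4 fell by 0.21 (adjusted p = 0.0150). The 11 proliferation markers called (91.7%) were led by CCNB1 (-0.61, edgeR adjusted p = 1.17e-07) and BIRC5 (-0.51, adjusted p = 3.39e-07). Of 8 mesenchymal markers, 4 fell and 1 rose (62.5% called). Their sum was 473 to 815 CPM in siNC and 358 to 563 CPM in siZCC. ACTA2 fell by 0.57 (edgeR adjusted p = 1.23e-04) and TAGLN by 0.75 (adjusted p = 2.54e-04), and PDGFRB rose by 0.42 (adjusted p = 2.25e-05). Of 6 oligodendrocyte lineage genes tested, PDGFRA fell by 0.64 (edgeR adjusted p = 0.0194) from a mean of 0.393 CPM, and SOX10 and MOG had at most 8 counts in a library. Of 3 pluripotency genes tested, DPPA4 rose by 0.89 (edgeR adjusted p = 6.55e-07) from a mean of 4.36 CPM in siNC. NANOG rose by 0.14 (edgeR adjusted p = 0.0251). POU5F1, at a mean of 0.718 CPM in siNC, did not pass (log2 fold change 0.20, edgeR adjusted p = 0.157). LIN28A and TDGF1 had at most 20 and 6 counts in a library and were not tested. Microglial genes were near 0, with 2 of 7 kept, neither called, and a sum of at most 1.97 CPM. The part of these cell types in the changes of the 10 members was not tested.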

How the data were processed

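The authors deposited whole-number counts per gene symbol, 1 column per library, not normalized. Libraries of total RNA were made with a directional kit after Qiazol lysis, per the labels' protocols. The submitters' processing notes name bcl2fastq 2.17, STAR 2.7.6a, featureCounts 2.0.1 and GRCh38; annotation and strand setting are not given in the sources used here.

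The unaltered counts went into edgeR 4.0.16 (R 4.3.3): filterByExpr, TMM scaling and the quasi-likelihood test without covariates, adjusted by Benjamini-Hochberg over all genes kept (threshold 0.05). The SE is the log2 fold change over the square root of F, and a prior count of 2 enters log2 CPM. Permutation tests of single genes are exact over 924 assignments, two-sided and unadjusted. Correlations used 100000 permutations within groups and adjustment over 45 pairs. Depth makes counting error small for the members, and the spread between replicates (biological coefficient of variation 6.55%) sets the precision.

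Members and lists were chosen with earlier results of these data known, as was the IL1B split (over 100 counts), which no label gives. Named genes are the members, ZCCHC17, the 2 smallest p-values in each direction in each list among those called, the 2 genes of at least 5 CPM most like each member, and genes overlapping or resembling a member. Others (TUBB3, RBFOX3, NCAM1, SNAP25, GAP43, VIM, NES, GFAP, STMN3, MAP1S, DCLK3, SOX10, MOG, POU5F1, LIN28A, TDGF1) were added with their values known. Replicate numbers did not pair the samples. Alternatives were DESeq2 1.42.0, limma 3.58.1 voom, sva 3.50.0, other scalings and filters, the replicate block, a minimum change, the IL1B split, each library left out and, added after seeing the data, a correction for GC content and length in list and single gene results. Of the symbols, 92.2% were in GENCODE release 29. Python 3.11.15 with numpy 2.4.6, pandas 2.3.3 and matplotlib 3.10.9 drew the figures.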

Additional observations from a re-analysis of the deposited data

Results flagged for a closer look

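The total of siNC replicate 4, 90755953 counts, lay apart from those of the other siNC libraries, which ran from 109973707 to 120023356. The gap to its nearest neighbour was 0.657 of the group's range, above Dixon's critical value for 6 samples. Of 24 groups of values checked in this way, 1 was picked out, and chance picks out about 1 in 20. Without this library DCLK1 lost its call, as it did without 8 others.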

How the results depend on the processing

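Over 24 alternatives for each of the 10 members, 198 of 240 values kept their direction and side of the threshold. Another 34 lost a call, 2 gained one (MAP4, by DESeq2's Wald test and by the GC content and length correction) and 6 changed sign. Calls lost were 14 of 24 for DCLK1, 8 each for MAP1B and STMN2, 2 for STMN1 and 1 each for DCX and STMN4. The 4 members not called in the main fit had no call to lose. The sign changes were MAPT at 0.0323 within the high-IL1B libraries, MAP2 at -0.0325 within the low-IL1B libraries, and MAP2 on leaving out single libraries (range -0.0274 to 0.0485). The cause was not tested. The count of members called was 1 in the high-IL1B and 1 in the low-IL1B libraries, with fewer samples, and 0 against a minimum change of 1.2-fold. On leaving out single libraries it ran from 3 to 6, and it was 5 to 7 under the other settings. Genes called fell from 5481 to 2043 and 1602 in the high- and low-IL1B libraries and to 349 against the minimum change, and ran from 4484 to 5626 on leaving out single libraries. Microtubule genes called by list fell from 51 to 32 and 31 within the split, and structural proteins rose from 5 to 8 with the GC content and length correction. ZCCHC17 stayed from -2.53 to -2.49 on leaving out single libraries. With the replicate number as a block, 5 members and 4902 genes were called, and DCLK1 was lost (0.10, adjusted p = 0.0836). Libraries of the same number did not vary together: their correlations ran from -0.231 to 0.234, and 0 of 6 numbers matched best with their own. Other scalings shifted the median of all genes by less than 0.1. With 18527 to 257067 counts per member and library, depth did not limit the members.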
